A study of Mus musculus with 36 samples.

Results

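The transcripts of 10 apolipoprotein genes, Apoa1, Apoa2, Apoa4, Apoa5, Apob, Apoc1, Apoc3, Apoe, Apom and Apoh, were followed in whole liver during a year of carbon tetrachloride (CCl4) exposure. The genes were taken by symbol from a table of read counts for 32544 gene symbols. All 10 were among the 15338 genes with enough counts to be tested. Livers came from male C57BL/6N mice on a standard diet, 8 to 10 weeks old at the start, with 6 mice in each of 6 groups. In 3 groups, mice were injected intraperitoneally 2 times a week with 1 g per kg of CCl4, a solvent that liver enzymes turn into a damaging radical, dissolved in olive oil, for 2, 6 or 12 months. In 2 groups, mice received the olive oil vehicle alone for 2 or 12 months. The last group is titled a month 0 control, although its treatment label also reads olive oil. Collection was on day 6 after the final dose of CCl4 or oil.

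Apolipoproteins are the protein components of lipoproteins, the particles that carry cholesterol and triglyceride in plasma, and the liver makes most of them. Apob is the structural protein of very low density lipoprotein (VLDL), the triglyceride carrier that hepatocytes secrete, while Apoa1 and Apoa2 are the main proteins of high density lipoprotein (HDL). Smaller apolipoproteins move between particles and set how fast their triglyceride is hydrolysed and how they are bound by receptors.

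The libraries held 19403247 to 28917545 counts, and the lowest count of any of the 10 genes in any library was 1476, for Apoa4. Expression was put on the CPM scale, counts relative to library size after adjustment by trimmed means (TMM), and means are given ± SD over 6 mice. Alb, which encodes albumin and marks hepatocytes, lay between 33651 and 84159 CPM in the 36 libraries. Some libraries also held transcripts of neighbouring tissue. The 14 exocrine pancreas markers summed to 32368 CPM in month 2 CCl4 replicate 5, 28407 CPM in month 12 oil replicate 4 and 17258 CPM in month 2 oil replicate 2, and to 9.35 to 11491 CPM elsewhere. Without the first of these the month 2 call of Apoa1 was lost, and without the second Apoc1 was called in the interaction given further on. No other call on the 10 genes changed without either of them. Every fold change is a log2 value with its standard error (SE) from the quasi-likelihood F-test of edgeR, fitted to all 36 libraries, and calls were made where the p adjusted by Benjamini-Hochberg over the 15338 genes was below 0.05. In RNA from whole liver, fewer cells of a type and less RNA per cell cannot be told apart. The labels do not say whether the mice of a group shared a cage or a batch.

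The genes lie at 6 places in the mm10 genome. Apoa1 (chromosome 9, 46228580 to 46230466, plus strand), Apoc3 (46232933 to 46235636, minus strand), Apoa4 (46240696 to 46243459, plus strand) and Apoa5 (46268633 to 46271919, plus strand) are neighbours on chromosome 9. Apoc1 (chromosome 7, 19689481 to 19692660) and Apoe (19696109 to 19699188) are neighbours on the minus strand of chromosome 7. Single positions are those of Apoa2 (chromosome 1, 171225054 to 171226379, plus strand), Apob (chromosome 12, 7977648 to 8016835, plus strand), Apom (chromosome 17, 35128997 to 35132050, minus strand) and Apoh (chromosome 11, 108343354 to 108414396, plus strand). All 10 are annotated as protein-coding. Apoa4 and Apoa5 overlap annotated antisense transcripts, and the span of Apoh overlaps Prkca on the other strand. The labels do not say whether strand was used in counting, so reads of such partners could not be told apart.

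The bases just before the annotated starts of 4 genes are printed because these genes went different ways under CCl4: Apoa4 was higher at each month, Apoa1 was lower at month 2, and Apoa5 and Apob were lower at month 12. The sequences are from the RefSeq promoter table of build GRCm38.p6, which held 8 of the 10 genes, read 5′ to 3′ on the strand of the gene. Capitals mark a match to 1 of 4 motifs searched on both strands, CAAAGTNCA (an HNF4-type direct repeat), AGGTCA (a nuclear receptor element), TATAAA (the core box found upstream of many start sites) and TTGCNNAA (a C/EBP-type site). The windows are chr9:46240594-46240695 for Apoa4, chr9:46228380-46228579 for Apoa1, chr9:46268383-46268632 for Apoa5 and chr12:7977427-7977647 for Apob, all on the plus strand.
Apoa4: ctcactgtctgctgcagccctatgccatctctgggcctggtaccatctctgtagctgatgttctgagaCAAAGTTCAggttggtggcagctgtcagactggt
Apoa1: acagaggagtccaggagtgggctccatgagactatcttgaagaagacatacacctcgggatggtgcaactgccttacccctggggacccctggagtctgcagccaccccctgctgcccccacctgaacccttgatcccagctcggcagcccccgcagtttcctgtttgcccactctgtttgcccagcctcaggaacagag
Apoa5: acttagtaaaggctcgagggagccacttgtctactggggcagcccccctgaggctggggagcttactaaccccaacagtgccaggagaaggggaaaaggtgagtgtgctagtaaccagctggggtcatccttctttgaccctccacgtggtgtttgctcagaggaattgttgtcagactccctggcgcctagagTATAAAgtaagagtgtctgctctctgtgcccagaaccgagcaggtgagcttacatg
Apob: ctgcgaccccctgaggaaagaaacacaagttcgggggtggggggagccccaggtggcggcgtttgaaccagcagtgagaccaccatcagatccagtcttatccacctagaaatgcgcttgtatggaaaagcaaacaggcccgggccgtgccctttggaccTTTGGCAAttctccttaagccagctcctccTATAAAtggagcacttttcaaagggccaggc

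The Apoa4 window held CAAAGTTCA, a match to the HNF4-type motif, 34 bases before the annotated start. That motif was found in 1.19% of 32851 RefSeq windows of 250 bases, and in 1 of the 12 windows listed for the 10 genes. TATAAA stood 56 bases before the start of Apoa5 and 31 bases before that of Apob, and 12.4% of all windows held it. The Apob window also held TTTGGCAA, a match to the C/EBP-type motif on the other strand, 61 bases before the start, and 9.56% of all windows held this motif. AGGTCA was in none of the 4 printed windows, against 14% of all windows, and the Apoa1 window had none of the 4 motifs. The printed windows end at the gene starts given above, so those of Apoa4, Apoa1, Apoa5 and Apob are 102, 200, 250 and 221 bases long. Distances are to the same starts. From the RefSeq starts, the Apoa4 match stood 182 bases away and TATAAA of Apob 60 bases. TATAAA also stood 31 bases before another RefSeq start of Apoa5. A match is a string of letters and no evidence of binding, and a window without one says nothing about the factor.

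Per kilobase of exon, the scale on which levels of different genes can be set side by side, the 10 genes spanned a wide range. In month 12 CCl4 livers Apoa2 averaged 5027 CPM per kb, Apoe 4133, Apoa1 3730 and Apoc1 2696, while in month 12 oil livers Apoa2 averaged 7137 CPM per kb, Apoe 4647, Apoa1 4471 and Apoc1 3530. Apoh, Apoc3 and Apob formed a middle group, with 759, 566 and 503 CPM per kb in month 12 CCl4 livers, against 995, 993 and 959 CPM per kb in month 12 oil livers. Apoa4 was in eighth place in month 12 CCl4 livers, with 431 CPM per kb, and in last place in month 12 oil livers, with 122 CPM per kb. Apoa5 was last in month 12 CCl4 livers, with 159 CPM per kb, and eighth in month 12 oil livers, with 298 CPM per kb. Before scaling, the 10 genes together took 3.61 ± 0.569% of all counts in month 12 CCl4 livers and 3.40 ± 0.301% in month 12 oil livers.

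**Figure D1:**
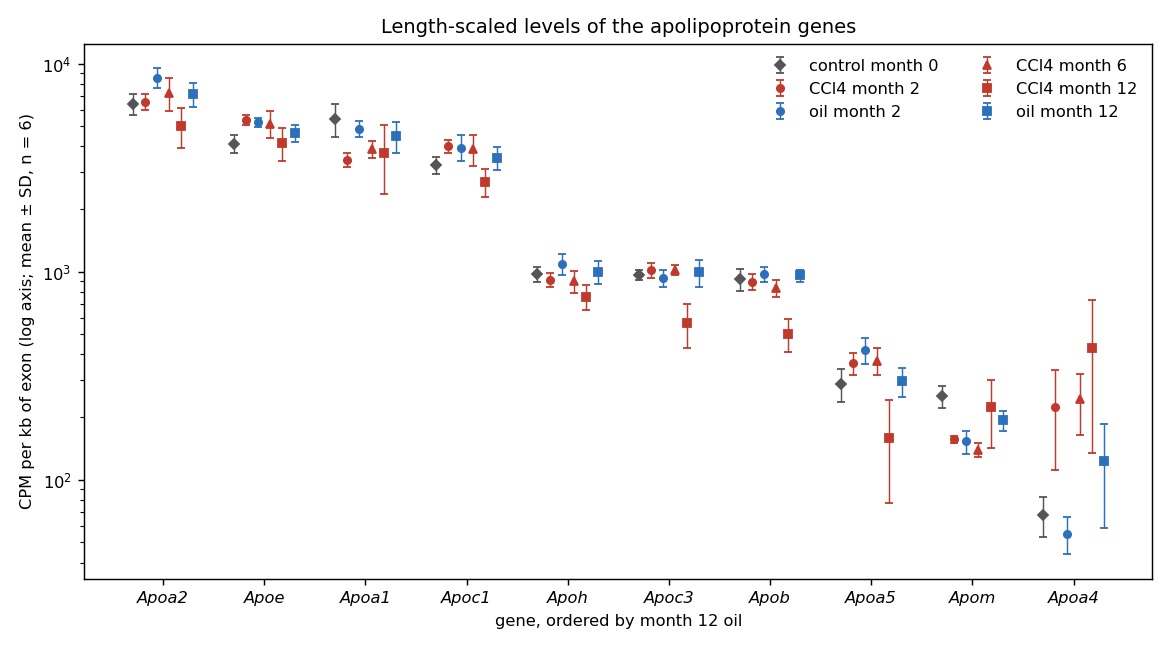
Levels of the 10 genes in CPM per kilobase of exon on a log axis, in the 6 groups; markers are means and bars SDs of 6 mice, with genes ordered by their month 12 oil level. At month 12 Apoa4 is at 431 CPM per kb in CCl4 livers and 122 in oil livers, while Apob is at 503 in CCl4 livers and 959 in oil livers.

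At month 12, 1 of the 10 genes was higher and 6 were lower in CCl4 livers, where 25.9% and 23.2% of all tested genes were called higher and lower. Apoa4 was the gene called higher. Apob, Apoa5, Apoc3, Apoa2, Apoh and Apoc1 were called lower, while Apoa1, Apoe and Apom were not called. The median log2 fold change was -0.39 over the 10 genes and 0.01 over all tested genes. At month 2, 2 of the 10 genes were called, against 10.4% of all genes: Apoa4 was higher and Apoa1 lower. At month 6 no oil group of the same age is among the samples, so CCl4 livers were set against both oil groups, averaged with equal weight. There Apoa4 was called higher, against 7.71% of all genes, and 0 of the 10 were called lower, against 3.68%. With an unadjusted p below 0.05, Apob, Apoh and Apom had values of -0.22, -0.22 and -0.30 at month 6, where 3756 of all 15338 genes had such a p in either direction. Because the month 6 comparison uses the oil mice of the other months, the 3 comparisons are not independent. The plot of CCl4 effects by month shows all 30 values.

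**Figure D2:**
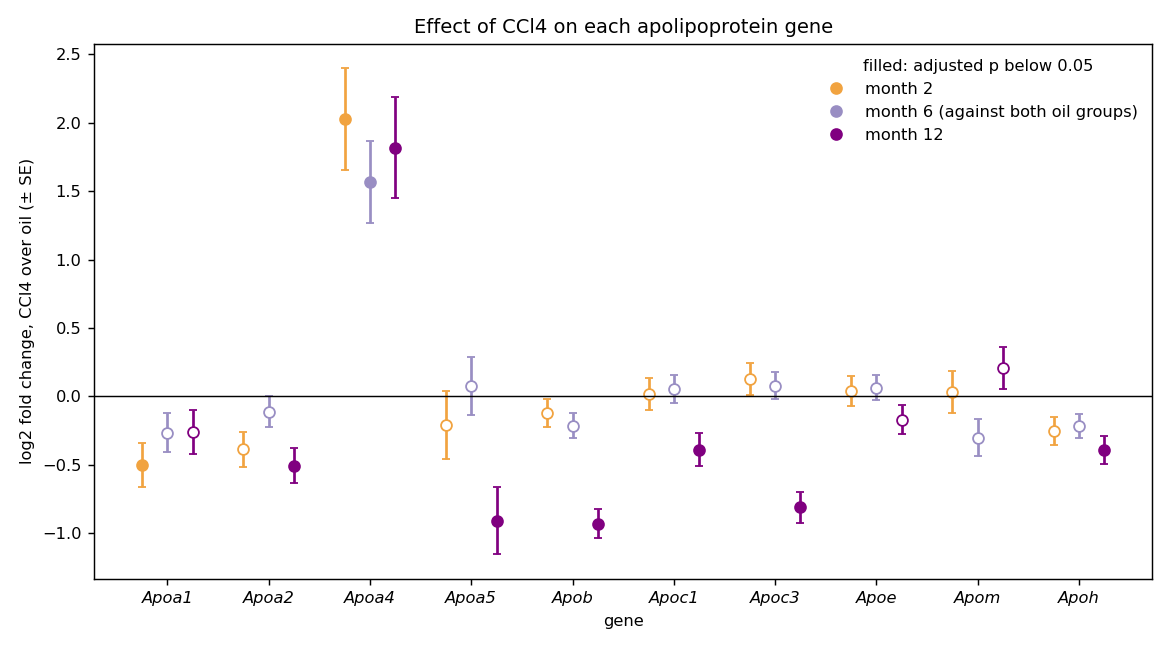
Log2 fold changes of the 10 genes in CCl4 against oil at months 2, 6 and 12; bars are ± SE from the fit to 36 libraries and filled points were called at an adjusted p below 0.05. Apoa4 is above 0 at each month (2.03, 1.57 and 1.82), and Apob, Apoc3 and Apoa5 leave the zero line at month 12 (-0.93, -0.81 and -0.91).

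These directions are relative to the median gene, which TMM scaling holds near 0. With library totals as the only scaling, the median of all genes stood at 0.20 at month 2, 0.31 at month 6 and 0.56 at month 12, the last against 0.01 with TMM. The split of calls then went to 3160 higher and 179 lower at month 2 (1073 and 518 with TMM), 8884 and 177 at month 6 (1182 and 564), and 10331 and 592 at month 12 (3975 and 3561). At month 12 under this scaling Apob (-0.38, adjusted p = 0.00158) and Apoc3 (-0.27, adjusted p = 0.0396) were still called lower, and Apoa4 was still called higher (2.35). Apoa5 was not called (-0.36), Apoa1, Apoa2, Apoc1 and Apoh turned to values above 0 without a call (0.29, 0.04, 0.16 and 0.16), and Apoe and Apom were called higher (0.38 and 0.76).

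Apob was lower in every mouse given CCl4 for 12 months than in every oil mouse of that age. Its levels ran from 5466 to 8728 CPM with a median of 7017 CPM in month 12 CCl4 livers, and from 12222 to 14248 CPM with a median of 13644 CPM in month 12 oil livers. The fitted level was 52.5% of that in oil (log2 fold change -0.93, SE 0.11, adjusted p = 9.54e-09). Of all tested genes, 10.2% had CCl4 mice lying wholly below oil mice at month 12, and Apob, Apoa5 and Apoc3 were such genes. In the other groups Apob kept a narrow range. Means were 12471 ± 1119 CPM in month 2 CCl4 livers and 11589.5 ± 1078 CPM in month 6 CCl4 livers, against 13548 ± 1121 CPM in month 2 oil, 13359 ± 879 CPM in month 12 oil and 12808 ± 1585 CPM at month 0. Ordered by mean, neighbouring groups among these 5 differed by less than their SDs. The effect of CCl4 was more negative at month 12 than at month 2 by 0.81 (SE 0.15, adjusted p = 0.000145 for the interaction). For this interaction 10.1% of all genes were called lower, and 2 of the 10 apolipoprotein genes, Apob and Apoc3, while 11.2% of all genes and 0 of the 10 were called higher.

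Genes that load lipid onto Apob or move the particle were not all lower with it. Of 17 genes of lipoprotein assembly and secretion, 2 were called higher and 7 lower at month 12 (25.9% and 23.2% of all genes), with a median of -0.17. Mttp, which transfers triglyceride to Apob in the endoplasmic reticulum, was lower by a smaller amount (-0.34, SE 0.12, adjusted p = 0.0164), with 226 ± 51.0 CPM in month 12 CCl4 livers and 286 ± 25.9 CPM in month 12 oil livers. Mia2, a receptor that helps load large cargo into transport vesicles (-0.68), and Sar1b, a GTPase of such vesicles (-0.63), fell. Called higher were Tm6sf2 (0.66), which takes part in lipid loading of VLDL, and Dgat1 (0.48), an enzyme of triglyceride synthesis. At month 2 Sort1, a sorting receptor that binds Apob, was the single gene of this list called, and fell by 0.65. At month 6 Sort1 (-0.94) and Tm6sf2 (-0.39) were lower and Lpcat3 (0.28), a phospholipid remodelling enzyme, was higher, so Tm6sf2 was on opposite sides of 0 at months 6 and 12.

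Apoa4 encodes an apolipoprotein of triglyceride-rich particles and HDL that in rodents is made in intestine and liver. It was the 1 gene of the 10 called higher at each of the 3 months. The 6 mice given CCl4 for 2 months had 804, 333, 245, 312, 310.0 and 435 CPM, and month 2 oil livers ran from 65.9 to 119.8 CPM with a median of 106 CPM. The groups did not overlap, as was the case in this direction for 4.64% of all genes, and the fitted level was 407% of that in oil (log2 fold change 2.03, SE 0.37, adjusted p = 0.000453). Without replicate 1, the highest mouse, the fold change was 1.70 and still called.

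The spread of Apoa4 was wider at month 12 of CCl4 than at months 2 and 6. Month 6 CCl4 livers ran from 263 to 701 CPM with a median of 415 CPM. The fold change against the mean of both oil groups was 1.57 (SE 0.30, adjusted p = 0.000488), but against month 12 oil alone it was 0.99 and not called (adjusted p = 0.0888). At month 12 the mice had 1706, 1107, 577, 614, 503 and 190.4 CPM under CCl4, and 96.9 to 388 CPM with a median of 228 CPM in oil. The groups overlapped there, since the sixth CCl4 mouse lay below the oil median. The fold change was 1.82 (SE 0.37, adjusted p = 0.000123), and no interaction of CCl4 and month was called (-0.21, interval -1.20 to 0.78). By mean the order was month 12 CCl4 (783 ± 540 CPM), month 6 CCl4 (442 ± 144), month 2 CCl4 (406 ± 204), month 12 oil (222 ± 116), month 0 (123 ± 27.1) and month 2 oil (99.8 ± 20.4). Neighbours in this order differed by less than the larger of their SDs. Oil livers at month 12 were higher than oil livers at month 2 by 1.16, without a call (adjusted p = 0.176).

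Since intestine also transcribes Apoa4, the 15 intestinal epithelium markers were summed in each library. They came to 1040 CPM in month 2 CCl4 replicate 6 and to 47.6 to 84.4 CPM in the other 5 month 2 CCl4 livers, against 65.9 to 110 CPM in month 2 oil livers. Fabp2, the intestinal fatty acid binding protein, reached 235 CPM in that library, against up to 89.4 CPM in month 2 oil. Replicate 1, the highest in Apoa4, had 7530 CPM of blood and neutrophil markers, against at most 1817 CPM in month 2 oil, but 48.2 CPM of intestinal ones. Leaving out both libraries, along with month 2 oil replicate 2 (the pancreas transcripts above) and month 12 oil replicate 2 (the highest sum of stellate cell markers among oil livers, 1181 CPM), gave an Apoa4 fold change of 1.53 at month 2 (adjusted p = 0.0226) and 1.85 at month 12. In month 12 CCl4 livers the intestinal sum was 34.5 to 229 CPM, highest in replicate 1, which was also highest in Apoa4, against 47.9 to 112 CPM in month 12 oil, and 4 of the 15 markers were at 0 in all month 12 CCl4 libraries, against 2 in month 12 oil. The markers did not move together there. Of the 8 with enough counts to be tested, 2 were called higher and 2 lower at month 12, with a median log2 fold change of -1.54. Among all genes 25.9% were called higher and 23.2% lower. What part these transcripts have in the Apoa4 level was not tested.

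**Figure D3:**
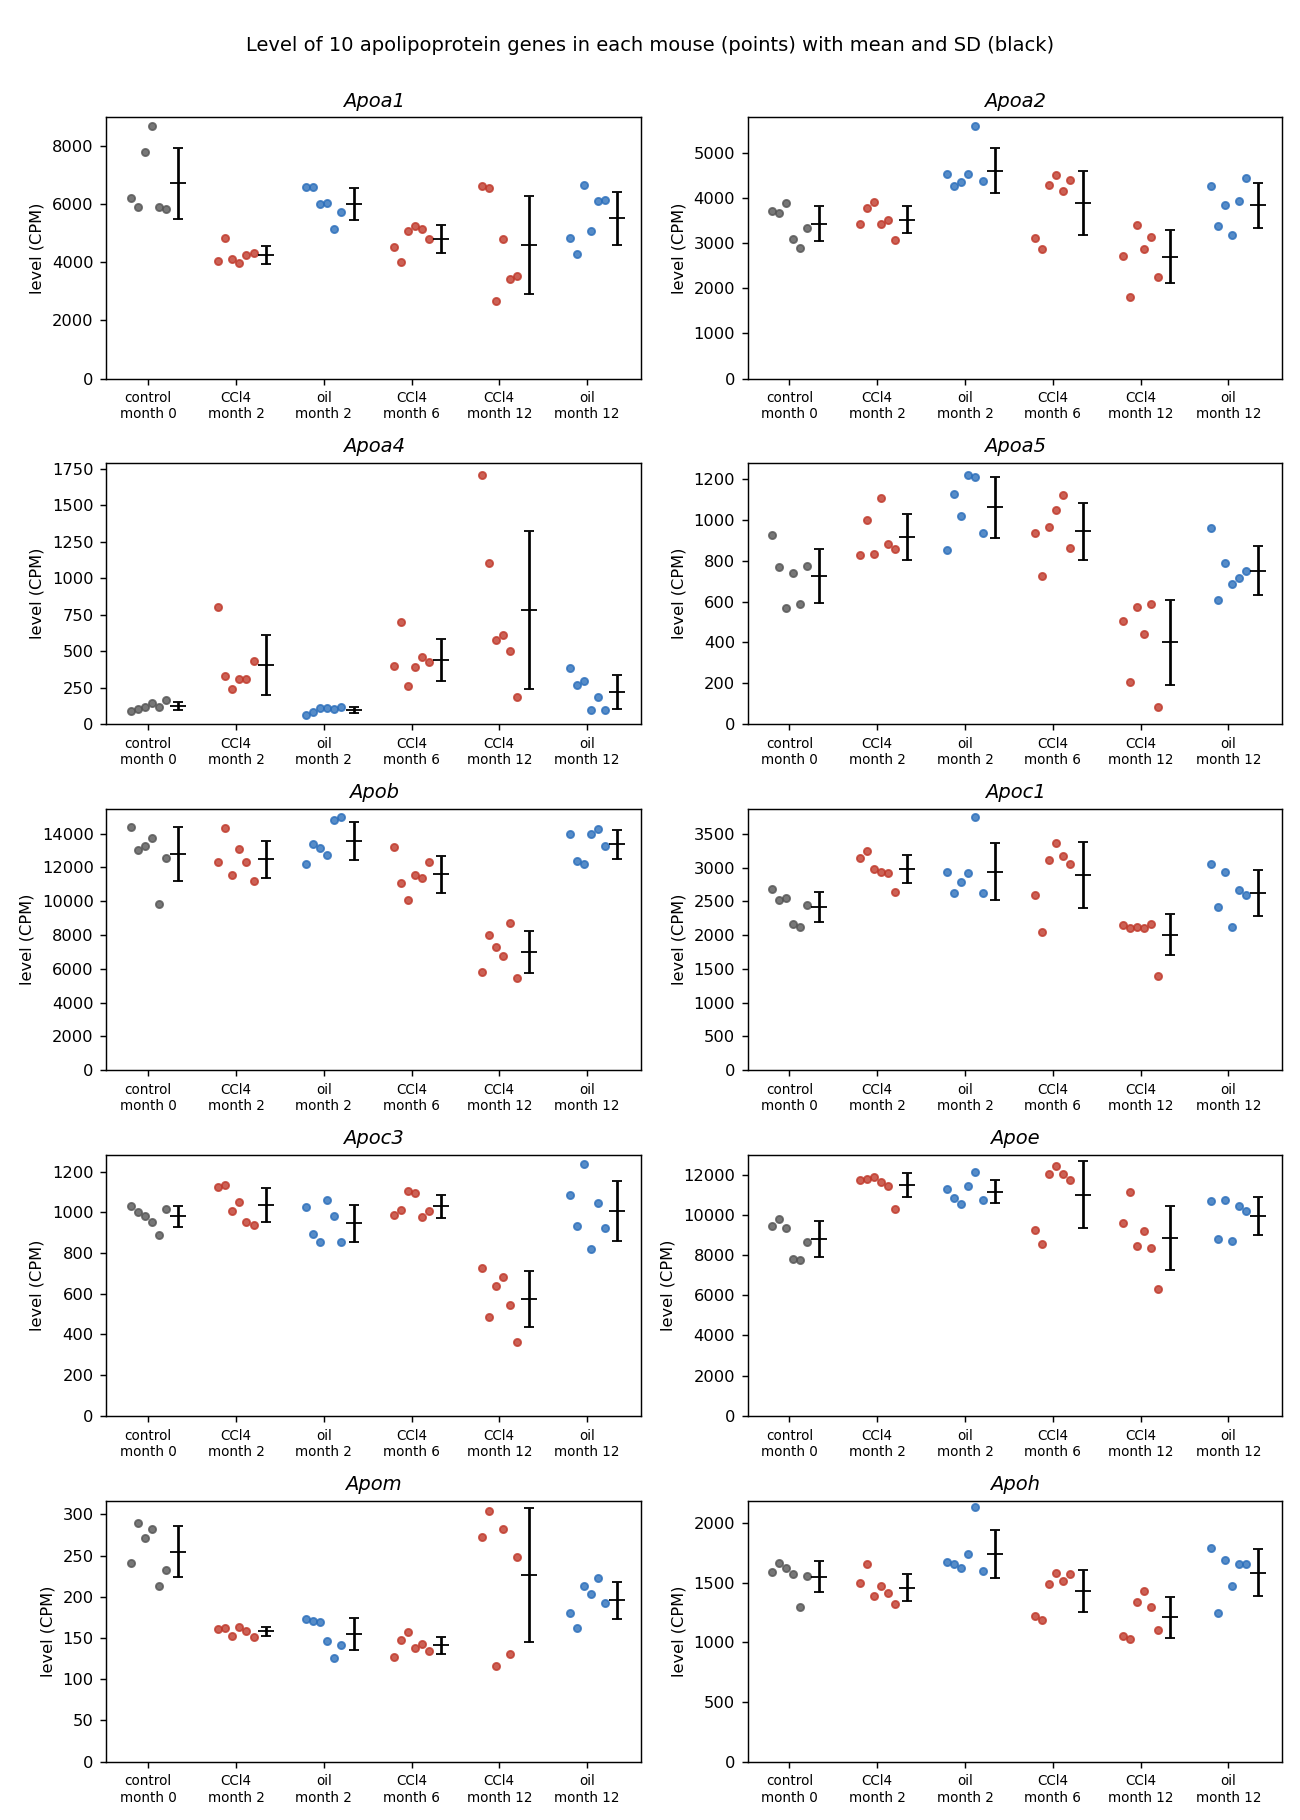
Levels of the 10 genes in CPM in each of the 36 mice (points), with group means and SDs in black; each panel has a linear axis from 0. In month 12 CCl4 livers Apob (5466 to 8728 CPM) and Apoc3 (364 to 728 CPM) are below every month 12 oil liver, and Apoa4 spans 190.4 to 1706 CPM.

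Among the HDL proteins, Apoa1 and Apoa2 were both lower in every month 2 CCl4 liver than in any month 2 oil liver, a separation in this direction seen for 2.40% of all genes. Apoa1, which accepts cholesterol and activates the esterifying enzyme Lcat, ran from 3987 to 4849 CPM with a median of 4179 CPM in month 2 CCl4 livers, and from 5164 to 6608 CPM with a median of 6028 CPM in month 2 oil livers. Its call was a narrow one (log2 fold change -0.50, SE 0.16, adjusted p = 0.0407). The call was lost, with fold changes between -0.50 and -0.47, without CCl4 replicate 1, 3, 4, 5 or 6 or without oil replicate 1, 2, 3 or 4 (adjusted p between 0.0605 and 0.0818), and with library totals alone (-0.30, adjusted p = 0.173). Apoa2, the second HDL protein, ran from 3063 to 3912 CPM in month 2 CCl4 livers and from 4260.1 to 5594 CPM in month 2 oil livers, and just missed the threshold (-0.39, SE 0.13, adjusted p = 0.0508).

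At month 12 Apoa2 was called lower, with 1815 to 3410 CPM and a median of 2794 CPM in CCl4 livers, against 3169 to 4431 CPM and a median of 3881 CPM in oil livers (-0.51, SE 0.13, adjusted p = 0.00163; 0.04 with library totals alone). Apoa1 was not called (-0.26, SE 0.16, adjusted p = 0.179), and whether the 2 changes differ was not tested. Its 6 CCl4 mice had 6636, 6576, 2670, 4799.5, 3443 and 3540.5 CPM, against 4297 to 6672 CPM in oil. Of these mice, 3 lay within the range of the oil group and 3 below it: the coefficient of variation was 36.6% in month 12 CCl4 livers and 16.6% in month 12 oil livers.

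Apom, an HDL protein that carries sphingosine 1-phosphate, also varied widely between mice at month 12 of CCl4. In month 12 CCl4 livers it had 272, 304, 117, 283, 131 and 248 CPM, against 162 to 222 CPM in month 12 oil livers, so that replicates 3 and 5 lay below the oil group and the other 4 above it. Replicate 6 was above the oil group in Apom and below it in Apoa1. Over the group Apom was not called (0.21, SE 0.15, adjusted p = 0.273), but it was without replicate 3 (0.37, adjusted p = 0.0214) or replicate 5 (0.35, adjusted p = 0.0406). Taken as deviations from the group means over the 36 libraries, which share their scaling and dissection, Apoa1 and Apom had a Pearson r of 0.76. At month 2 Apom ran from 151 to 163 CPM in CCl4 livers and from 126 to 173 CPM in oil livers (0.03, SE 0.15).

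Apoa5 and Apoc3 act in opposite directions on plasma triglyceride, Apoa5 as an activator of lipoprotein lipase and Apoc3 as an inhibitor of it, and both were lower at month 12. Apoa5 had 503, 208, 574, 443, 588 and 86.8 CPM in month 12 CCl4 livers, and 610 to 958 CPM with a median of 731 CPM in month 12 oil livers. All 6 lay below the oil mice, with replicates 2 and 6 farthest away. The fitted level was 53.3% of that in oil (-0.91, SE 0.25, adjusted p = 0.00279), and the fold change was -0.68 and called without replicate 6. It was not called with library totals alone or in a fit of the compared groups only (-0.89, adjusted p = 0.0620). Apoc3 had 728, 485, 638, 684, 544 and 364 CPM in month 12 CCl4 livers, and 819 to 1238 CPM with a median of 989 CPM in month 12 oil livers. Its fitted level was 57% of that in oil (-0.81, SE 0.12, adjusted p = 6.96e-07).

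Neither gene was called at months 2 and 6. Apoc3 averaged 1034 ± 84.3 CPM at month 2 and 1029.6 ± 56.6 CPM at month 6 under CCl4, and 946 ± 91.1 CPM in month 2 oil livers. The change in its CCl4 effect between months 12 and 2 was -0.94 (SE 0.16, adjusted p = 7.71e-05). For Apoa5 that change was -0.70 and not called (SE 0.35, adjusted p = 0.157). In deviations from group means Apoa5 and Apoc3 had a Pearson r of 0.72 over the 36 libraries, while Apoc3 and its nearest neighbour Apoa1 had 0.23.

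Apoc1 and Apoe are exchangeable apolipoproteins of VLDL, its remnants and HDL. Apoe is the ligand by which remnants bind their receptors on hepatocytes, and Apoc1 inhibits lipoprotein lipase and remnant uptake. Apoc1 was lower at month 12, with 1387 to 2161 CPM and a median of 2113 CPM in CCl4 livers, against 2113 to 3049 CPM and a median of 2626 CPM in oil livers (-0.39, SE 0.12, adjusted p = 0.00698; 0.16 with library totals alone). Replicates 1 to 5 lay between 2108 and 2161 CPM and replicate 6 at 1387 CPM. The fold change was -0.28 and called without replicate 6 (adjusted p = 0.0378), and was not called in a fit of the compared groups only (adjusted p = 0.0624). Apoe was not called (-0.17, SE 0.11, adjusted p = 0.196), with 6304 to 11125 CPM in month 12 CCl4 livers and 8693 to 10762 CPM in month 12 oil livers. At month 2 both were close to oil, with fold changes of 0.02 (interval -0.22 to 0.25) for Apoc1 and 0.04 (interval -0.17 to 0.25) for Apoe. The 2 genes had the highest within-group correlation of all pairs of the 10 (Pearson r 0.86 over 36 libraries).

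Macrophages transcribe Apoe and Apoc1 as well. Summed over 20 macrophage markers, month 2 CCl4 livers had 1339 to 2370 CPM and month 2 oil livers 960 to 1244 CPM. Month 12 CCl4 livers had 1348 to 2557 CPM, against 1082 to 1436 CPM in month 12 oil livers, and none of the markers was at 0 in either group. At month 2, 16 of the 20 were called higher and 0 lower, at month 6 10 were higher and 1 lower, and at month 12 14 were higher and 1, Timd4, lower. The macrophage gene Adgre1 averaged 75.3 ± 18.7 CPM in CCl4 livers and 46.3 ± 5.16 CPM in oil livers. The part of these cells in the levels of Apoe and Apoc1 was not tested.

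Apoh, or beta-2-glycoprotein I, is a plasma protein that binds anionic phospholipid and is only loosely tied to lipoproteins. It had 1029.6 to 1432 CPM with a median of 1199.8 CPM in month 12 CCl4 livers, and 1244 to 1796 CPM with a median of 1656 CPM in month 12 oil livers. It was called lower (-0.39, SE 0.10, adjusted p = 0.00202), although with library totals alone its value was 0.16. At month 2 it was not called (-0.25, SE 0.10, adjusted p = 0.115). Among 16 other plasma protein genes of hepatocytes, 9 were called lower and 0 higher at month 12, against 23.2% and 25.9% of all genes, with a median of -0.54. Among them Plg (plasminogen, -0.72), Vtn (vitronectin, -0.66) and Ttr (transthyretin, -0.57) fell, so genes outside the apolipoproteins were lower too. In this list 0 genes were called at month 2, against 10.4% of all genes, and 6 were lower at month 6, against 3.68%.

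In several groups 1 mouse was lowest in many of these genes. Among month 12 CCl4 livers, replicate 6 was lowest for 6 of the 10, namely Apoa4, Apoa5, Apob, Apoc1, Apoc3 and Apoe. Without it the month 12 fold changes were 2.05 for Apoa4, -0.85 for Apob, -0.69 for Apoc3 and -0.07 for Apoe, and 6 genes were still called lower and 1 higher. In the same way, month 2 CCl4 replicate 6, the library with intestinal transcripts, was lowest of its group for 7 genes, as was month 0 replicate 5, and month 6 CCl4 replicate 2 was lowest for 6.

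Count ratios of 2 genes within 1 library do not depend on how libraries are scaled. For 7 pairs at months 2 and 12 the log2 ratios were compared by two-sided exact permutation tests, 14 in all, with a smallest possible p of 0.00216, and 9 passed after adjustment. These pairs were chosen after the values of the genes had been seen. On chromosome 9, Apoa4 rose relative to Apoa1 by 2.43 at month 2 (SE 0.31, exact permutation p = 0.00216, adjusted p = 0.00605) and by 2.03 at month 12 (SE 0.50, exact permutation p = 0.00649, adjusted p = 0.0130). Apoc3, the nearest neighbour of Apoa1, rose relative to it by 0.63 at month 2 (exact permutation p = 0.00216, adjusted p = 0.00605), with all 6 CCl4 mice above the 6 oil mice. At month 12 that ratio was lower by 0.51 without passing (exact permutation p = 0.0758, adjusted p = 0.0884). Leaving out 1 library at a time, the difference ran from -0.69 without CCl4 replicate 3 (unadjusted exact permutation p = 0.00433) to -0.35 without CCl4 replicate 2. In 11 of these 12 settings the unadjusted p was not below 0.05. Apob rose relative to Apoa1 by 0.38 at month 2 (exact permutation p = 0.0130, adjusted p = 0.0228), while at month 12 the difference was -0.62 (exact permutation p = 0.0476, adjusted p = 0.0606). Apoa5 relative to Apoa1 differed by 0.29 at month 2 (adjusted exact permutation p = 0.0515) and by -0.83 at month 12 (adjusted exact permutation p = 0.178), neither of them past the threshold. Apoc1 fell relative to Apoe by 0.21 at month 12 (exact permutation p = 0.0173, adjusted p = 0.0269), and its ratio differed by -0.02 at month 2 (adjusted exact permutation p = 0.846).

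Next to Apoe and Apoc1 lie Apoc4 (chromosome 7, 19678083 to 19681479) and Apoc2 (19671579 to 19677941), on the same strand. Apoc2 is the cofactor that lipoprotein lipase requires. Apoc2 averaged 579 ± 360 CPM in month 12 CCl4 livers and 121 ± 13.2 CPM in month 12 oil livers, with no overlap (log2 fold change 2.26, SE 0.22, adjusted p = 7.40e-10). Of all tested genes, 12.1% had CCl4 mice lying wholly above oil mice at month 12. Apoc4 went the other way, with 273 ± 46.3 CPM in month 12 CCl4 livers and 504 ± 48.8 CPM in month 12 oil livers (-0.88, SE 0.10, adjusted p = 1.00e-08). Within libraries, Apoc2 rose relative to Apoe by 2.23 and Apoc4 fell relative to it by 0.71 (each with exact permutation p = 0.00216, adjusted p = 0.00605). At month 2 the same ratios differed by 0.38 (exact permutation p = 0.00433, adjusted p = 0.0101) and -0.22 (exact permutation p = 0.00216, adjusted p = 0.00605). Thus 4 genes of 1 cluster gave 1 higher, 2 lower and 1 uncalled level at month 12. A further gene, Gm44805 (19671584 to 19681423), is annotated across both Apoc2 and Apoc4, and the handling of reads that it shares with them is not stated in the labels.

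**Figure D4:**
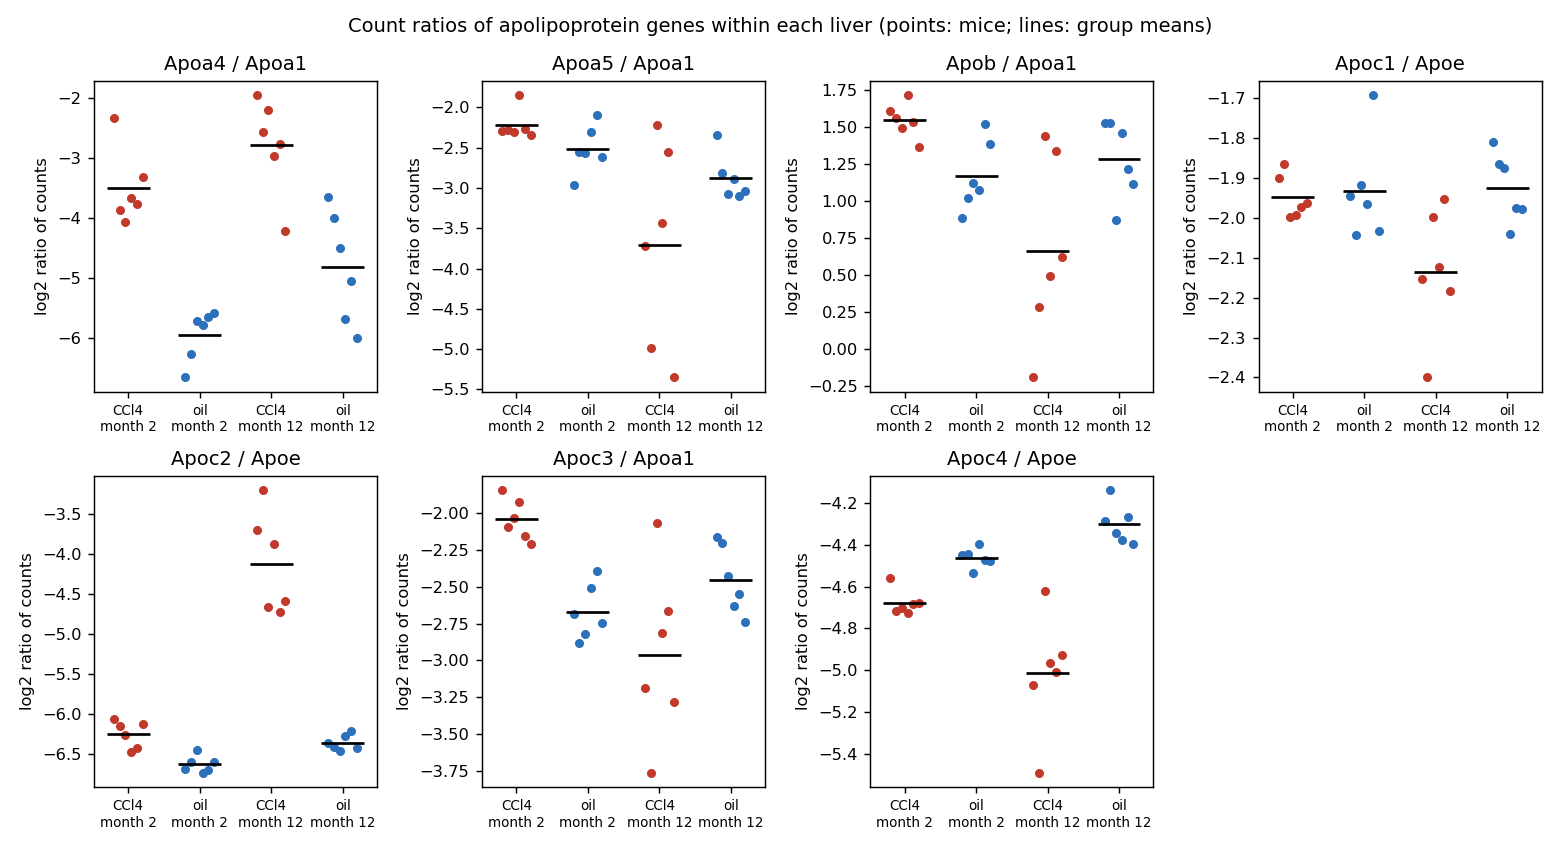
Log2 count ratios within each library for 7 pairs of genes in CCl4 and oil livers at months 2 and 12; points are mice and bars are group means, with the CCl4 group left of its oil group. Apoa4 to Apoa1 is higher by 2.43 and 2.03, and Apoc2 to Apoe by 0.38 and 2.23.

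Of 9 other plasma apolipoproteins, 2 were called higher and 6 lower at month 12 (25.9% and 23.2% of all genes). At month 2, 0 were called (10.4% of all genes), and at month 6, 4 were lower and 0 higher (3.68% and 7.71%). Besides Apoc2, Clu (clusterin) was higher at month 12 (0.41, SE 0.10), and Apon was lower (-0.98, SE 0.13, adjusted p = 1.18e-07). The acute phase apolipoproteins Saa1 and Saa2, which replace Apoa1 on HDL in inflammation, fell at month 12 (-5.16 and -5.89). Saa1 averaged 46.6 ± 19.9 CPM in month 12 CCl4 livers, and in month 12 oil livers it ran from 139 to 7684 CPM. At month 6 Saa4, Saa1, Saa2 and Apof were the genes called lower, with Saa4 at -1.23 (SE 0.23, adjusted p = 0.000364).

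Of 18 genes that remodel lipoproteins in plasma or export lipid, 6 were called higher and 6 lower at month 12, against 25.9% and 23.2% of all genes. Lpl, lipoprotein lipase, which is low in adult hepatocytes and is carried by macrophages, averaged 211 ± 80.4 CPM in month 12 CCl4 livers and 48.0 ± 6.38 CPM in month 12 oil livers (2.13, SE 0.22, adjusted p = 1.06e-09). Lipc, the hepatic lipase, averaged 38.3 ± 20.4 CPM in month 12 CCl4 livers and 147 ± 19.8 CPM in month 12 oil livers (-1.95, SE 0.23, adjusted p = 1.81e-08). The cholesterol exporters Abcg1 (1.21), Abcg5 (1.12) and Abcg8 (0.73), the lipoprotein-associated phospholipase Pla2g7 (1.5) and the lipase anchor Gpihbp1 (0.73) were higher as well. Lpl, Pla2g7 and Abcg1 were also the 3 genes called higher at month 2 (0.81, 0.98 and 0.48) and the 3 at month 6 (1.01, 1.05 and 0.50). Abcg8 (-0.78) and Abcg5 (-0.56) were called lower at month 6 and higher at month 12.

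Of 14 lipoprotein receptors and their regulators, 3 were called higher and 5 lower at month 12, where 25.9% and 23.2% of all genes were. Pdzk1, which anchors the HDL receptor (-0.82), Lrpap1, a receptor chaperone (-0.35), and the remnant receptor Lrp1 (-0.73) were among those that fell. The HDL receptor Scarb1 (0.34), Vldlr (1.09) and Lrp8 (2.55) rose, the last at a level of 0.95 ± 0.794 CPM in month 12 CCl4 livers and 0.156 ± 0.1 CPM in month 12 oil livers. Lrp2 fell as well, by 1.34. At month 2 Mylip, a ligase that degrades these receptors, was the 1 gene called (0.39), and at month 6 there was none at an adjusted p below 0.05 in edgeR.

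Transcription factors known to act on apolipoprotein genes were lower or not called at month 12. Of 25, 10 were called lower and 0 higher (23.2% and 25.9% of all genes), with a median of -0.32. At months 2 and 6 edgeR called 0, against 10.4% and 11.4% of all genes. Thrb, a thyroid hormone receptor, averaged 21 ± 4.28 CPM in month 12 CCl4 livers and 42.3 ± 2.66 CPM in month 12 oil livers (-1.01, SE 0.10, adjusted p = 8.77e-10). Foxa1 (-1.27) and Nr2f2 (-0.59) fell. Creb3l3, a fasting-activated factor known in mouse liver to act on Apoa4, fell by 0.51 (SE 0.13) at month 12. Its transcript level does not give the activity of the factor, and its part in the Apoa4 level was not tested. Of 10 genes of the fasting response, 3 were called higher, namely Fgf21 (3.88), Cyp4a14 (3.03) and Pdk4 (0.84), and 3 lower, with Creb3l3 and Pck1 (-0.69) among them. In that list Fgf21 (-1.84) was the 1 gene called at month 2, and Cyp4a14 (2.16) the 1 gene called at month 6.

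**Figure D5:**
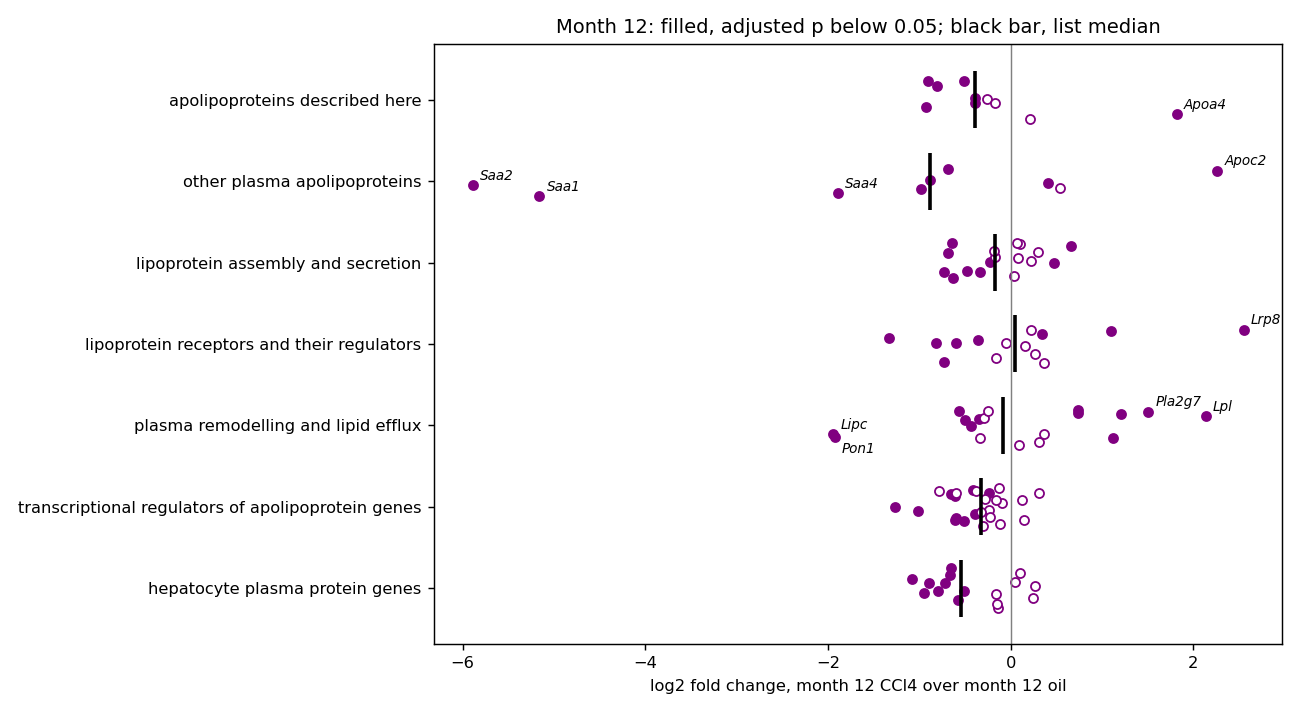
Log2 fold changes in CCl4 against oil at month 12 for the 10 apolipoprotein genes for other genes of lipoprotein metabolism by list and for hepatocyte plasma protein genes; filled points were called at an adjusted p below 0.05 and black bars are list medians. Apoc2 (2.26), Lpl (2.13) and Apoa4 (1.82) are far above 0, and Lipc (-1.95) is far below it.

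From month 6 to month 12 of CCl4, 6 of the 10 genes fell and 1 rose, against 18.6% and 20.6% of all genes. Those lower at month 12 were Apoa5 (-1.23), Apoc3 (-0.84), Apob (-0.73), Apoc1 (-0.53), Apoa2 (-0.53) and Apoe (-0.32). Apoe lost its call without month 12 replicate 6 (-0.23) or month 6 replicate 4 (-0.28). Apom rose by 0.68 (SE 0.15, adjusted p = 0.000667), with 226 ± 81.2 CPM at month 12 of CCl4, against 141 ± 10.6 CPM at month 6, the lowest mean of the 6 groups. Apoa4 was higher by 0.83 without a call (adjusted p = 0.0676). It was called without month 12 replicate 5 or 6 or month 6 replicate 2 (0.94, 1.04 and 1.02), and Apoh was called lower without month 12 replicate 4 or month 6 replicate 1 or 2 (-0.29, -0.28 and -0.28, against -0.24 with all mice). Between months 2 and 6 of CCl4, edgeR called 0 of the 10 genes and 0.502% of all genes, with 1395 genes at an unadjusted p below 0.05 and none of the 10 among them.

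In vehicle livers 0 of the 10 genes differed between month 12 and month 2 by edgeR, where 0.0717% of all genes were called and 1753 had an unadjusted p below 0.05, Apoa4 (1.16), Apom (0.34) and Apoa2 (-0.26) among them. Month 2 oil livers and month 0 livers differed in 31.3% of all genes. Of the 10, Apoa2 (0.42, adjusted p = 0.0126) and Apoe (0.34, adjusted p = 0.0147) were higher in month 2 oil, against 14.8% of all genes, and Apom (-0.72, SE 0.15, adjusted p = 0.000586) was lower, against 16.4%. For these 3 genes the groups did not overlap, as was so for 13.9% of all genes. Apom averaged 155 ± 19.5 CPM in month 2 oil livers and 255 ± 30.5 CPM at month 0, and the call of Apoe was lost without month 0 replicate 4 or 5 (0.29 each). Beside this, the acute phase gene Saa1 averaged 190 ± 269 CPM in month 2 oil livers and 20047 ± 2596 CPM at month 0, and 12 of the 16 hepatocyte plasma protein genes were lower and 2 higher in month 2 oil. The part of that response in the 3 differences was not tested.

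The genes whose levels ran most nearly parallel to each apolipoprotein gene were read from Pearson r of log2(CPM + 1) over the 36 libraries, among 7548 genes with at least 10 CPM on average. All values share the scaling of the libraries and the differences between the 6 groups, and are descriptions. Apob was closest to Ceacam1 (0.95) and, among the next, Ube4a (0.94), and Apoa4 to Camk1 (0.85), App (0.82) and Csrp1 (0.82). Apoa5 was closest to the iron hormone Hamp (0.92), Rgn (0.92) and Dcaf11 (0.91), and Apoc3 to Fah (0.91), Mup18 (0.91) and Dpyd (0.90). By Spearman rho these 6 were not the closest genes. Hamp had a rho of 0.72 and rank 186, Rgn 0.65 and Dcaf11 0.69, while Fah had 0.66 and rank 55, Mup18 0.56 and Dpyd 0.58. Apom was closest to Rpn2 (0.89), Plod1 (0.83) and Trf (0.82), and Apoa1 to Prkcsh (0.86), F2 (0.82) and Serpina1a (0.81). For Apoa2 the first was Upb1 (0.92), for Apoc1 Uox (0.90), for Apoh Uqcrb (0.88) and for Apoe Nqo2 (0.86). Some of these others were not closest by Spearman rho either, with App at rank 59.5, Nqo2 at 15, Csrp1 at 14 and Uox at 11. Ceacam1, Upb1 and Rpn2 were at rank 1 by it. Mup18 has near-identical copies, whose reads may be split. In deviations from the group means r was 0.91 for Apoa5 and Hamp, 0.81 for Apoa1 and Prkcsh and 0.53 for Apoa4 and Camk1.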

How the data were processed

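The table that the authors deposited holds read counts as whole numbers for 36 libraries. Per the submitters' processing notes, the build was mm10 and the tools included Biojupies, edgeR 3.30.3 and limma 3.44.3; no gene annotation is named there. Groups were taken from the sample titles. The 10 genes, the gene lists and the rule for naming genes were chosen with earlier results of these data known. All members are named, as are the 3 list genes with the smallest p in a CCl4 comparison where called, genes called against their list's median, and the 3 genes most correlated with each member. A few further list genes, among them Mttp and Creb3l3, were named after their values were seen, and a few genes are not reported here.

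Here, filterByExpr kept 15338 genes and TMM factors ran from 0.757 to 1.33. A single quasi-likelihood model with a term per group (edgeR 4.0.16, R 4.3.3) gave 8 comparisons by F-tests. Positions and exon lengths were taken from GENCODE vM21. Levels per kilobase divide CPM by the union of exons. The p-values of the F-tests rest on 1 estimate of the spread between mice per gene, shared by the 6 groups. The SEs therefore do not follow the spread of the compared groups alone. For Apoa1 the SE was 0.16 at months 2 and 12, while its SDs in CCl4 livers were 315 and 1690 CPM. The fit was also run on simulated counts, drawn with the same spread in all groups and with few genes changed, equally up and down. At month 12 here many genes were called and the spreads of groups differed, so that run does not test this setting. Over 90 pairs of libraries within groups, chi-square per degree of freedom was at least 23.5, so no library was a copy of another of its group. Pairs across groups were not examined in this way. Alternatives were limma-voom (limma 3.58.1), DESeq2 1.42.0, other scalings, filters and reference groups, the replicate number as a block, and leaving out libraries. The ratio tests were added after the values were seen.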

Additional observations from a re-analysis of the deposited data

Results flagged for a closer look

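Among 60 combinations of gene and group, 7 held a mouse far from the other 5 of its group by Dixon's ratio of gap to range. Chance alone marks about 1 in 20 such groups. Month 2 CCl4 replicate 1 had 804 CPM of Apoa4, and the other 5 had 245 to 435 CPM. Month 2 CCl4 replicate 6, which held intestinal transcripts, had 10306 CPM of Apoe, the lowest of its group. Month 12 CCl4 replicate 6 had 1387 CPM of Apoc1, and the other 5 had 2108 to 2161 CPM. Month 2 oil replicate 5 was the highest of its group for 3 genes, with 5594 CPM of Apoa2, 3748 CPM of Apoc1 and 2134.5 CPM of Apoh. Month 0 replicate 5 had 1294 CPM of Apoh, the lowest of its group.

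For 2 genes the effect of CCl4 differed between months 12 and 2 by the interaction test of edgeR. That test called 3263 of all 15338 tested genes (21.3%) in either direction, so a call alone does not set these genes apart. The change in log2 fold change was -0.81 for Apob (-0.93 at month 12 and -0.12 at month 2) and -0.94 for Apoc3 (-0.81 at month 12 and 0.13 at month 2).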

How the results depend on the processing

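Of the 80 fold changes (10 genes in 8 comparisons), all kept their direction and call with limma-voom, and 79 with a filter of 1 CPM in 6 libraries. Library totals alone changed most, with the month 12 values of Apoa1 (0.291), Apoa2 (0.0377), Apoc1 (0.156), Apoh (0.16) and Apoe (0.379) above 0. Month 0 as reference put Apom at -0.687 at month 2. Under library totals the genes called were 3339 at month 2 (1591 with TMM), 9061 at month 6 (1746), 5553 for the interaction (3263) and 183 for month 12 against month 2 oil (11). The members called higher were then 2, 4 and 3 at months 2, 6 and 12 (1 each with TMM), 2 for CCl4 month 12 against 6 (1), 2 for the interaction (0) and 6 for month 2 oil against month 0 (2), and those called lower were 0 at month 2 (1) and 2 at month 12 (6). The calls of all genes also moved towards higher at months 2, 6 and 12, with the splits given above. At these months the member counts moved with those of all genes and are not read as a trait of the 10 genes. For the other comparisons no split of all genes by direction is given under this scaling. Their member counts therefore cannot be set against all genes, and nothing is read from them. At month 2, 2 members were called lower with the 1 CPM filter, the compared groups only, DESeq2, RLE factors or month 0 as reference, and 0 without a filter, with the replicate block or without 4 libraries that stood apart. Those 4 are month 2 CCl4 replicates 1 and 6 and replicate 2 of each oil group. Month 0 as reference called 6562 genes and 3 members higher, and leaving out the 4 libraries called 884 genes. At month 6, month 12 oil alone as reference called 1115 genes and 0 members higher, the compared groups only called 2 members lower, and leaving out the 4 libraries called 1 lower. For CCl4 month 6 against 2 (77 genes), the compared groups only called 34, DESeq2 119, limma-voom 38, the replicate block 50 and leaving out the 4 libraries 21. For month 12 against month 2 oil, these counts were 190, 140, 17, 19 and 6, and 26 with the 1 CPM filter. The cause of these shifts was not tested. Same-numbered libraries did not deviate together more than others did (median correlation -0.0388 over 90 pairs, against 0.00388 over 450 pairs of different number). No pairing by number was seen, and whether some mice shared a batch or cage was not tested. The replicate block changed 1 of 80 calls, that of Apoa1 at month 2 (-0.494, adjusted p = 0.0617). Leaving out 1 library at a time gave 1049 to 2376 genes at month 6 (lowest without CCl4 replicate 2), 12 to 111 for CCl4 month 6 against 2 (below 50 without month 2 replicate 6 or month 6 replicate 1, 2, 3, 4 or 6) and 4 to 28 for month 12 against month 2 oil (beyond 1.5 times for 10 of the 12 libraries, all but replicate 2 of each group). Members called higher ranged over 1 to 2 at month 12, for CCl4 month 12 against 6 and for month 2 oil against month 0. Members called lower ranged over 0 to 1 at month 2 and at month 6, where Apoh was called without month 12 oil replicate 2 (-0.268), and 2 to 3 for the interaction, where Apoc1 was called without month 12 oil replicate 4 or month 2 oil replicate 5.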
